A study of Mus musculus with 12 samples.

Results

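Among the nuclei of the newborn mouse forebrain, a small set was chosen by RNA that mitral and tufted cells, the projection neurons of the olfactory bulb, are known for. A nucleus was selected where it had at least 2 unique molecular identifiers (UMIs, tags that each mark 1 captured RNA molecule) of Tmem132d, at least 1 UMI of Eomes and Cdhr1 summed, and 0 UMIs of Gad1 and Gad2, the enzymes that make GABA. The rule was applied to nuclei with 800 to 6000 UMIs, 300 to 3000 genes and at most 1% mitochondrial UMIs, called kept nuclei here. It found 203 of 101742 kept nuclei (0.200%), of 126684 barcodes in all. The levels of these 5 genes chose the nuclei, so they are given below as a description, and no test of them is reported.

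Mitral and tufted cells are glutamatergic neurons that receive input from olfactory sensory neurons and send their axons through the lateral olfactory tract to the olfactory cortex. Eomes, also called Tbr2, is a T-box transcription factor of these cells and also of the intermediate progenitors that give rise to cortical excitatory neurons. Cdhr1 is a cadherin-related membrane protein found in photoreceptors and in the olfactory bulb, and Tmem132d is a single-pass membrane protein of neurons. Gad1 and Gad2 mark the inhibitory granule and periglomerular cells that surround mitral cells in the bulb.

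The nuclei came from single-nucleus RNA sequencing of 12 mice at postnatal day 1 (P1), 8 wild-type (WT) and 4 with 1 copy of Myt1l carrying a frameshift (Het), all of a C57BL/6 line bred from Het by C57BL/6J pairs. Myt1l encodes a zinc finger transcription factor of neurons. Each library is 1 animal, with males in WT 1 to WT 5 and Het 1 to Het 3 and females in WT 6 to WT 8 and Het 4. The animals came from 4 litters, and the sources used here do not say which animals were littermates, so the litter cannot be separated from the genotype. The labels give the region as forebrain, while the study's methods name prefrontal cortex in 1 place. How far each dissection reached towards the olfactory bulb is therefore not known, and it bears directly on the number of bulb nuclei in a library. Total UMIs per library ranged from 15439429 in WT 8 to 40784144 in WT 7, and kept nuclei per library from 4797 in WT 8 to 11745 in Het 3. No barcode was shared between libraries (0 of 126684), nor was any of the 96 wells of the first barcoding step.

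The selected nuclei had a median of 3067 UMIs against 2000 in all kept nuclei. The rule asks for UMIs of certain genes, which favours deep nuclei. Other glutamatergic nuclei, defined below, were deep as well, with library medians from 2174 UMIs (WT 6) to 3140.5 UMIs (WT 7). In the same libraries the selected nuclei had medians of 2635 and 5646 UMIs. Tmem132d had a median of 10 UMIs and reached 112 in a nucleus. Eomes was detected in 149 of the 203 nuclei and Cdhr1 in 84, and 30 nuclei had both. The second condition of the rule therefore rested on few molecules, with a median of 1 Eomes UMI and no nucleus above 6 Eomes or 4 Cdhr1 UMIs. The rule did not ask for a vesicular glutamate transporter, and 125 nuclei (61.6%) had a UMI of Slc17a6 or Slc17a7.

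The rule asks for 1 UMI of Eomes or Cdhr1, and the share of kept nuclei without Gad1 and Gad2 that met this is given by Tmem132d level, as a description of the genes the rule used. It was 0.899% of nuclei without Tmem132d (633 of 70418). Just below the rule's limit, above 0 and under 2 Tmem132d UMIs, it was 1.61% (75 of 4661), and just above it, at 2 to under 3, it was 1.46% (24 of 1640). At the limit itself the share therefore did not step up. It was 2.19% at 3 to under 5 Tmem132d UMIs (32 of 1458), 4.45% at 5 to under 10 (44 of 989), 11.3% at 10 to under 20 (34 of 301) and 58.0% at 20 or more (69 of 119). The median depth rose along with it, from 1876 UMIs per nucleus without Tmem132d to 3811 at 20 or more, and the part of depth in these shares was not tested. Of the 203 selected nuclei, 100 came from the bands under 10 Tmem132d UMIs, where the share was low. Nuclei of microglial type had 3 or more UMIs of microglial markers and were not selected, so any that met the whole rule were left out beforehand. Among the 285 nuclei of this type, 1.75% had 2 or more Tmem132d UMIs, at a median depth of 1250 UMIs. None of them had Eomes or Cdhr1 (0 of 285, which allows a share of up to 1.05%), a number of nuclei too small to set their share apart from 0.899%.

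**Figure D1:**
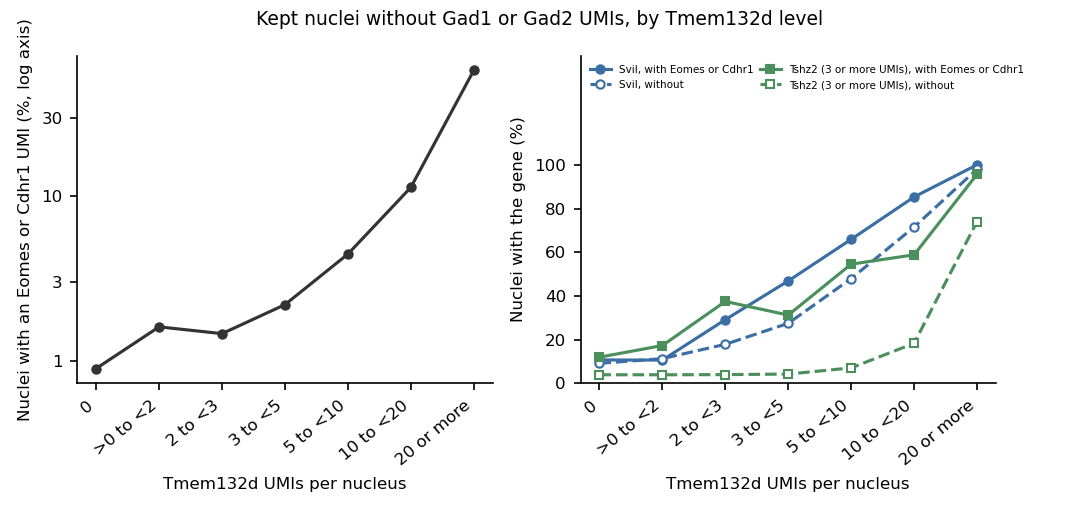
Left, the percent of kept nuclei without Gad1 or Gad2 that had an Eomes or Cdhr1 UMI (log axis) by the number of Tmem132d UMIs in the nucleus. Right, the percent of the same nuclei with a UMI of Svil or with 3 or more UMIs of Tshz2, filled points for nuclei with Eomes or Cdhr1 and open points for nuclei without; both genes were common at 20 or more Tmem132d UMIs.

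Nuclei near the threshold carried less of the genes that lead the profile described below than those with high Tmem132d did. Just inside it, 24 selected nuclei had 2 to under 3 Tmem132d UMIs, and 29.2% of them had a UMI of Svil. Just outside it, 75 nuclei had Eomes or Cdhr1 with above 0 but under 2 Tmem132d UMIs, of which 10.7% had Svil. At 20 or more Tmem132d UMIs all 69 nuclei with Eomes or Cdhr1 had Svil (100%) and 95.7% had 3 or more Tshz2 UMIs. The nuclei at that Tmem132d level without Eomes or Cdhr1, which the rule left out, had Svil in 98% and 3 or more Tshz2 UMIs in 74%, so much of the profile was also found outside the rule. The rule also left out 4304 nuclei with 2 or more Tmem132d UMIs that had neither Eomes nor Cdhr1, and 35 nuclei that failed through a UMI of Gad1 or Gad2 alone, 10 of these with 10 or more Tmem132d UMIs.

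To describe what else these nuclei expressed, UMIs were summed per library and given as CPM, a gene's UMIs relative to all UMIs of the summed nuclei on the usual fixed scale, for the 7 libraries with at least 10 selected nuclei (WT 1, WT 3, WT 5, WT 6, WT 8, Het 1 and Het 4). They were set beside other glutamatergic nuclei of the same libraries, which are kept nuclei with a UMI of Slc17a6 or Slc17a7, none of Gad1 or Gad2, and not selected (9882 nuclei in all 12 libraries). CPM is not scaled to gene length, so levels are compared between nuclei for a gene and not between genes. Genes that follow Tmem132d from nucleus to nucleus come with the choice of nuclei, and this contrast carries no test. Of 547 genes with at least 200 UMIs in the selected nuclei, 23.8% were higher in all 7 libraries (130 genes) and 14.3% were lower in all 7 (78 genes). Over the 7205 genes with at least 10 UMIs the median log2 ratio was 0.11.

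Svil, which encodes supervillin, an actin- and membrane-binding protein, had the largest ratio once the rule genes were left out. Its level in selected nuclei was 443 CPM for WT 1, 2449 for WT 3, 1696 for WT 5, 2157 for WT 6, 3477 for WT 8, 2520 for Het 1 and 3594 for Het 4. WT 1 was the lowest by far, and all 7 libraries lay above the highest value in other glutamatergic nuclei, 126 CPM. The means were 2334 ± 1077 against 85.7 ± 32.2 CPM (SD, n = 7), a log2 ratio of 4.77.

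Tshz2, a zinc finger transcription factor of the teashirt family, followed with 3228 ± 993 against 203 ± 21.4 CPM (SD, n = 7) and a log2 ratio of 3.99. It ranged from 2093 CPM in WT 1 to 4439 CPM in Het 4 and did not overlap the other glutamatergic nuclei.

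The other leading genes are named with what each is known to encode, and these kinds were not compared with all genes. Cntn4 encodes a contactin (log2 ratio 2.12), Sema5a a semaphorin (2.30), Edil3 an integrin ligand (2.41) and Fstl4 a follistatin-like protein (2.48). Adcy8 encodes a calcium-stimulated adenylyl cyclase (2.56), Akap13 an anchoring protein (2.87), Pde1c a phosphodiesterase (2.10) and Dgkb a diacylglycerol kinase (2.03). Hs3st5 (2.08) and Ndst4 (2.40) encode sulfotransferases of heparan sulfate. Bicc1 (3.30) and Pcbp3 (2.53) encode RNA-binding proteins, and Epb41l4a (3.65) a band 4.1 family protein of the membrane skeleton. Nhs (2.29), Tmem117 (2.12), the sortilin family receptor Sorcs3 (2.05) and Egfem1 (2.05) were also among the genes with the largest ratios. Cntn4 had 3378 against 779 CPM and Egfem1 3214 against 777 CPM, means over the 7 libraries.

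Several of these genes were as high or nearly as high in another class, in CPM pooled over libraries. Hs3st5 had 1398 CPM in nuclei of Cajal-Retzius type (525 nuclei, defined below) and 1363 in the selected nuclei, and Edil3 had 1860 and 2272. Dgkb had 556 CPM in nuclei of Eomes progenitor type (96 nuclei, defined below) and 456 in the selected nuclei. Ndst4 had 509 CPM in the Cajal-Retzius type and 521 in the Eomes progenitor type, against 681 in the selected nuclei. Pcbp3 had 470 CPM in inhibitory nuclei of olfactory bulb type, also defined below, and 550 in the selected nuclei. Svil was at most 57.9 CPM in these 3 classes, against 2510 in the selected nuclei.

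**Figure D2:**
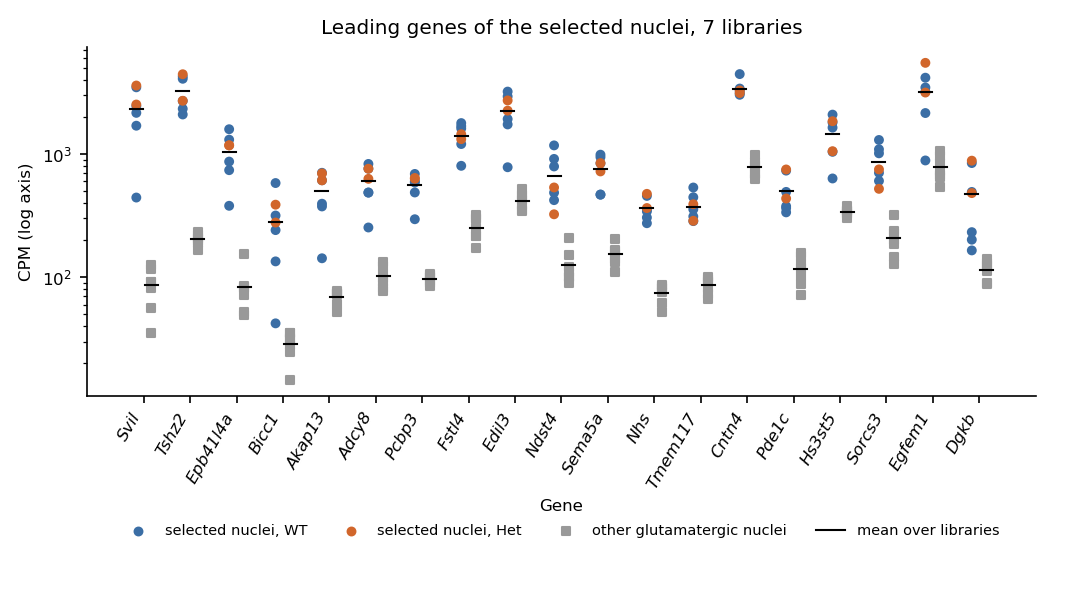
CPM (log axis) of genes among the 20 with the largest ratio, in selected nuclei (circles, coloured by genotype) and in other glutamatergic nuclei of the same 7 libraries (grey squares), with black bars at the means. Svil and Tshz2 had the widest gaps, and WT and Het points were interleaved for most genes.

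Among genes with at least 200 UMIs and lower in the selected nuclei, Ptprk stood furthest from the comparison group. Ptprk, a receptor tyrosine phosphatase, had 347 ± 231 against 3342 ± 520 CPM (SD, n = 7), a log2 ratio of -3.27, with 0 of 7 libraries higher. The splicing factor Rbfox1 (-2.49), the potassium channel Kcnq5 (-2.35), the zinc finger factor Zeb2 (-1.97) and the metabotropic receptor Grm5 (-1.95) came next.

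The profile differed with the Tmem132d level within the selected nuclei. Among the 103 nuclei with 10 or more Tmem132d UMIs, 95.1% had a UMI of Svil and 83.5% had 3 or more of Tshz2. Among the 100 nuclei with fewer, 51% had Svil and 43% had 3 or more Tshz2 UMIs. The first set was also deeper, with a median of 3453 against 2679.5 UMIs per nucleus, whose part in these shares was not tested either. In CPM, which allows for depth, Svil had 4197 in the first set and 452 in the second, both pooled over libraries. Egfem1 had 5388 against 846 CPM, while Sema5a (780 against 726) and Sorcs3 (819 against 820) were nearly level. Ptprk went the other way, with 66.4 CPM in the nuclei high in Tmem132d and 695 in the rest, and so did Meis2, with 66.7 against 621.

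Libraries differed in how many selected nuclei were high in Tmem132d, which chose the nuclei and is left out of the profile. WT 8 had 36 of its 53 selected nuclei at 10 or more Tmem132d UMIs, Het 1 had 19 of 32, Het 4 had 13 of 25 and WT 3 had 12 of 24. WT 1 had 2 of 12, and Het 3 had 0 of 9. The 9 nuclei of Het 3 had 90.6 CPM of Svil, 181 of Tshz2 and 362 of Reln, beside 33.4, 279 and 634 CPM of the same genes in its other glutamatergic nuclei. The other profile genes went both ways there, for example Cntn4 (966 against 584 CPM) and Adcy8 (181 against 83.5 CPM) higher and Edil3 (362 against 544 CPM) and Fstl4 (151 against 223 CPM) lower, on few UMIs. The 8 nuclei of Het 2 had 2052 CPM of Svil, 1823 of Tshz2 and 1823 of Reln. Of the 5 libraries too small for the profile, WT 7 stood at the other end, with 4713 CPM of Svil and a mean of 69.3 Tmem132d UMIs in its 3 nuclei.

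The label was checked against 15 markers of mitral and tufted cells that the rule did not use. Of these, 14 had at least 1 UMI and 8 had at least 10, while Lbhd2 was at 0. Their summed level was 3966 to 5497 CPM in the selected nuclei and 2115 to 2732 CPM in other glutamatergic nuclei, higher in 7 of 7 libraries, and most of it was Reln. Markers taken 1 by 1 gave a mixed picture: the median log2 ratio of the 8 was 0.30, beside 0.11 over all genes, 1 was higher in every library and 1 was lower in every library, Slc17a7, which chose the comparison group.

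Reln, which encodes the secreted protein reelin and is strongly expressed in mitral cells and in Cajal-Retzius cells, was the marker higher throughout. It had 2637 CPM for WT 1, 3206 for WT 3, 2585 for WT 5, 3492 for WT 6, 3536 for WT 8, 2675 for Het 1 and 3317 for Het 4. All lay above the highest other glutamatergic value of 1036 CPM, and the means were 3064 ± 419 against 760 ± 174 CPM (SD, n = 7, log2 ratio 2.01). Nuclei of Cajal-Retzius type, with 2 or more UMIs of Trp73, Lhx1 and Lhx5 and no Gad1 or Gad2, had far more Reln, 17748 CPM pooled over 525 nuclei. Trp73, a defining gene of Cajal-Retzius cells, had 10 UMIs in all selected nuclei, and Nhlh2 had 0. Calb2, which encodes calretinin and is on the same list, was higher in all 7 libraries at 49.5 against 11.0 CPM, with 31 UMIs. Pooled over libraries it had 47.1 CPM in the selected nuclei and 63.2 in the Cajal-Retzius type.

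Tbx21, a T-box factor specific to mitral and tufted cells within the bulb, gave 5 UMIs in the 7 libraries, with 1 in WT 5, 1 in WT 8, 2 in Het 1 and 1 in Het 4. Its mean in other glutamatergic nuclei was 0.58 CPM, and 5 UMIs are too few to give a level in the selected nuclei. Tbr1, a T-box factor of mitral cells and of deep cortical layers, had 95.1 ± 36.2 against 68.1 ± 17.9 CPM (SD, n = 7) and was higher in 4 of 7 libraries. Slc17a6, the vesicular glutamate transporter VGLUT2, had 293 ± 102 against 384 ± 29.6 CPM, where the comparison group was itself chosen by that gene. Adult mitral and tufted markers were near 0, with 4 UMIs of Doc2g, 2 of Thy1, 2 of Barhl2 and 6 of Pkib. Beyond the rule genes, which the selected nuclei have by construction, Reln alone among the 15 markers was higher in every library, and it is not particular to mitral cells. The nuclei are called the selected nuclei in what follows.

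Markers of most other classes were low, though the upper end of each sum given here lay above that of other glutamatergic nuclei. Those of microglia summed to 12.7 to 40.1 CPM in the selected nuclei and 18.9 to 29.2 CPM in other glutamatergic nuclei, with C1qa and Csf1r at 0. Endothelial and mural markers summed to 0 to 84.0 against 11.4 to 46.5 CPM with Kcnj8 at 0, and those of the oligodendrocyte lineage to 0 to 141 against 7.47 to 18.6 CPM with Sox10 at 0. Astroglial markers summed to 164 to 386 against 164 to 254 CPM. Genes of progenitors and cycling cells summed to 25.4 to 50.4 against 26.3 to 49.3 CPM, and none of the 10 had 10 UMIs (0 genes). In nuclei of Eomes progenitor type (96 nuclei with 2 or more Eomes UMIs, no Tmem132d and no Gad1 or Gad2) the pooled sum was 501 CPM. Inhibitory neuron markers spread most, from 70.3 to 1251 CPM against 258 to 705 CPM, with Slc32a1, Dlx5 and Dlx6 at 0. At least 2 UMIs of glial, vascular or inhibitory marker lists were present in 57 selected nuclei, and 146 remained without them. Over all selected nuclei, Adarb2 had the most UMIs of the inhibitory list (197) and Slc1a2 of the astroglial list (113). The same share in other nuclei was not computed, so 57 is not read as a number of mixed nuclei.

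Other gene groups are read against the 23.8% of genes with at least 200 UMIs that were higher in all 7 libraries and the 14.3% that were lower. Of 32 genes of axon guidance, 14 had at least 200 UMIs, of which 4 were higher (28.6%) and 4 lower (28.6%). The higher ones were the semaphorin receptors Nrp1 (536 against 148 CPM, log2 ratio 1.85) and Nrp2 (340 against 124 CPM, 1.46), the Slit receptor Robo2 (5611 against 2656 CPM, 1.08) and the ephrin receptor Epha3 (2375 against 1032 CPM, 1.20). The lower ones were Epha5 (479 against 1260 CPM, -1.39), Unc5c (718 against 1241 CPM, -0.79), Plxna2 (393 against 653 CPM, -0.73) and Ncam1 (952 against 1544 CPM, -0.70). Over all 32 genes, whatever their UMIs, 4 were higher and 8 lower in every library. Neuropilins and Slit receptors are known to guide the axons of the lateral olfactory tract. Robo1, the other Slit receptor on the list, was higher in 3 of 7 libraries (1883 against 2074 CPM). Cajal-Retzius type nuclei also had much Robo2 (4749 CPM against 5605 in the selected nuclei, both pooled over libraries) and Epha3 (2019 against 2447 CPM, pooled). The netrin receptor Dcc was level in the means, at 3015 against 3012 CPM.

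Among 16 genes of GABA signalling, 5 had at least 200 UMIs, of which 2 were higher in all 7 libraries and 0 lower. The receptor subunit Gabra2 was at 1102 against 350 CPM (log2 ratio 1.65), and Gabrg1, with fewer than 200 UMIs, at 141 against 20.6 CPM (2.77). Gabbr2 (113 against 201 CPM, -0.83) and Gabrb2 (270 against 474 CPM, -0.81), also under 200 UMIs, were lower in all 7. Of 21 genes of glutamate release and reception, 13 had at least 200 UMIs, of which 3 were higher (23.1%) and 4 lower (30.8%), the first near the share over all genes. The higher ones included the presynaptic receptor Grm8 (1252 against 470 CPM, 1.41) and the kainate receptor Grik1 (628 against 198 CPM, 1.67). Nuclei of Eomes progenitor type had 1347 CPM of Grm8 against 1152 in the selected nuclei and 987 CPM of Gabra2 against 1154, pooled over libraries.

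Of 26 neuronal transcription factors 5 had at least 200 UMIs, of which 1 was higher, Tshz2, and 3 were lower, too few to read against all genes. Bcl11b was at 288 against 158 CPM (log2 ratio 0.87), Nfia at 248 against 566 CPM (-1.19) and Nfib at 572 against 1039 CPM (-0.86). Upper layer and deep layer genes had 2 of 6 each at 200 UMIs or more, with 0 higher in either list and 0 and 1 lower. In the TMEM132 family Tmem132c was higher in all 7 libraries at 101 against 18.5 CPM (log2 ratio 2.45), with 62 UMIs. Myt1l itself was lower in all 7, with 1225 ± 141 against 1669 ± 138 CPM (SD, n = 7, log2 ratio -0.45).

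The genotypes were first compared by the share of selected nuclei among kept nuclei, with the library as the unit. In WT libraries it was 0.109% (WT 1), 0.0137% (WT 2), 0.387% (WT 3), 0.0741% (WT 4), 0.195% (WT 5), 0.253% (WT 6), 0.0294% (WT 7) and 1.10% (WT 8). In Het libraries it was 0.292% in Het 1, 0.0746% in Het 2, 0.0766% in Het 3 and 0.284% in Het 4. WT 8 stood far above the rest, and the Het values lay inside the WT range. The 2 genotypes therefore overlapped, with Het 1 and Het 4 above the WT mean and Het 2 and Het 3 below it.

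WT libraries averaged 0.271 ± 0.359% (SD, n = 8) and Het libraries 0.182 ± 0.123% (SD, n = 4), a difference of -0.0889 percentage points (exact permutation test, two-sided p = 0.762, adjusted p = 0.784 over 5 measures). The smallest p that this exact permutation test could reach was 0.00202. WT 8 set the sign of this difference, which was 0.0302 percentage points without it (exact permutation p = 0.721). Within male libraries it was -0.00786 percentage points (exact permutation p = 1), and the females held 1 Het library, too few for a test. Selected nuclei with 10 or more Tmem132d UMIs, a limit chosen after seeing the data, gave -0.0643 percentage points (exact permutation p = 0.786).

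The 53 selected nuclei of WT 8 (26.1% of the 203) lay in all 8 of its first-step wells with at most 12 in a well, and the exact binomial 95% interval of its share, for counting error only, was 0.829% to 1.44%. It had the fewest kept nuclei and the lowest total UMIs of the 12 libraries, and its median of 1996 UMIs per kept nucleus lay within the range of the others.

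**Figure D3:**
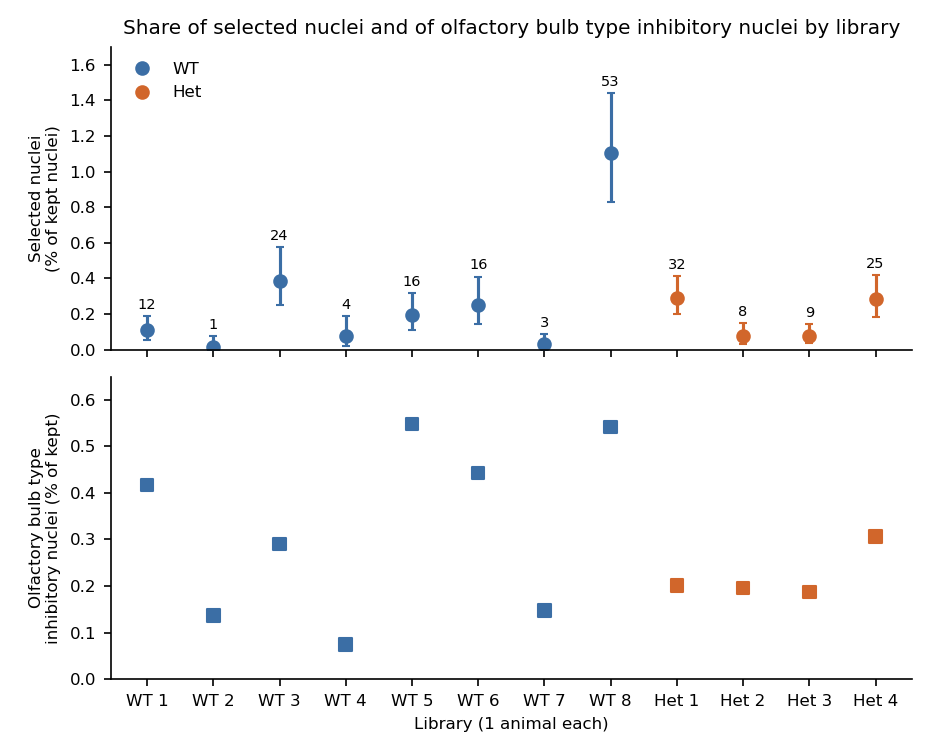
Percent of kept nuclei selected in each library (top, bars are exact binomial 95% intervals, numbers are the selected nuclei) and percent of olfactory bulb type inhibitory nuclei (bottom), WT in blue and Het in orange. WT 8 was highest in the top panel at 1.10%, and the libraries low in the top panel were mostly low in the bottom one.

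Since the dissections may have included the olfactory bulb to different extents, the share was set beside that of inhibitory nuclei of olfactory bulb type. These had a UMI of Gad1 or Gad2, of Sp8 and of Meis2, and they numbered 284. Sp8 and Meis2 are transcription factors of the neuroblasts that become granule and periglomerular cells. Meis2 was not limited to such cells, at 1251 CPM pooled over all kept nuclei. Adarb2, on the inhibitory list, had 3865 CPM in this class against 1144 over all kept nuclei. Which inhibitory neurons the class holds was not tested, and its name stands for the genes of its rule only. Where in the forebrain these nuclei lay is not known, so their share is not a measure of bulb tissue alone. Their share was lowest in WT 4 (0.0741%), WT 2 (0.137%) and WT 7 (0.147%), the 3 libraries with the fewest selected nuclei. It was highest in WT 5 (0.548%) and WT 8 (0.542%), and between 0.187% and 0.306% in the 4 Het libraries.

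Over the 12 libraries both shares moved together, with Pearson's r = 0.607 (permutation p = 0.0179, adjusted p = 0.0358 over 2 relations) and Spearman's rho = 0.720 (permutation p = 0.0107). Within the 8 WT libraries r was 0.596 (exact permutation p = 0.0722) and rho 0.690 (exact permutation p = 0.0694), which do not pass, and 4 Het libraries are too few. Without WT 5 and WT 8, the libraries farthest from the median on the inhibitory share, r was 0.515 (permutation p = 0.130) and rho 0.733 (permutation p = 0.0201). Without WT 8 alone r was 0.453 (permutation p = 0.161) and rho 0.682 (permutation p = 0.0259), so the linear relation was smaller and no longer passed. With every nucleus thinned to 800 UMIs, which left 59 selected nuclei, r was 0.581 (permutation p = 0.0245) and rho 0.406 (permutation p = 0.190), so the rank relation did not pass at equal depth. Nor did it for selected nuclei with 10 or more Tmem132d UMIs, a limit chosen after seeing the data, where r was 0.566 (permutation p = 0.0286) and rho 0.581 (permutation p = 0.0507).

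Shares of 3 other regional classes served to describe the tissue. For olfactory bulb type inhibitory nuclei WT libraries averaged 0.325 ± 0.189% (SD, n = 8) and Het libraries 0.223 ± 0.0561% (SD, n = 4), each of the 4 below the WT mean (exact permutation p = 0.323, adjusted p = 0.694). Striatal type nuclei, with Gad1 or Gad2 and 2 or more UMIs of the dopamine receptors Drd1 and Drd2, made up 0.516 ± 0.276% (n = 8) of WT and 0.787 ± 0.263% (n = 4) of Het libraries, each of the 4 above the WT mean (exact permutation p = 0.141, adjusted p = 0.694). WT 4 had 0.0185% of them. Thalamic type nuclei, with 2 or more UMIs of Tcf7l2 and 1 of Slc17a6 and no Gad1 or Gad2, were rare, at 0.0358 ± 0.0364% (n = 8) of WT and 0.0535 ± 0.0233% (n = 4) of Het libraries, 3 of the 4 above the WT mean (exact permutation p = 0.416, adjusted p = 0.694). None of the genotype differences passed, while single classes ranged many-fold between animals. Tissue extent and genotype cannot be told apart for a share of all nuclei.

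Because the rule asks for a number of UMIs, the depth of the selected nuclei was compared as well. Their median UMIs per library averaged 3510 ± 1007 for WT (SD, n = 8) against 3328 ± 537 for Het (SD, n = 4), a difference of -181 UMIs (exact permutation p = 0.784, adjusted p = 0.784). WT 7, with 3 selected nuclei and a median of 5646 UMIs, was the highest, and without it the difference was 124 UMIs (exact permutation p = 0.724). Without Het 4 it was 40.8 UMIs (exact permutation p = 0.945), and in males 171 UMIs (exact permutation p = 0.679). Over all kept nuclei the median was 2056 ± 124 UMIs for WT (n = 8) against 1921 ± 105 UMIs for Het (n = 4), where each of the 4 lay below the WT mean.

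To ask whether the Het genotype changed expression in the selected nuclei, their UMIs were summed per library and the 5 WT and 2 Het libraries with at least 10 of them were compared. Of 1792 genes tested with edgeR's quasi-likelihood test, 0% (0 genes) reached the call, which asked for a Benjamini-Hochberg adjusted p under 0.05 together with a change of 0.2 or more, in either direction, on the log2 scale. The smallest adjusted p was 0.999, and without adjustment 41 genes had p under 0.05, of which 17 were higher and 24 lower in Het. DESeq2 called 0 genes as well, with 17 at an unadjusted p under 0.05. Calls appeared without a filter on low counts (3 genes) and with replicate numbers as a block (1 gene). Male libraries alone held 1 Het library, and the calls of that fit are not read. The comparison had 2 Het libraries with 32 and 25 selected nuclei. In counts simulated with known changes, 97 of 1659 genes changed 2-fold and 93 changed 4-fold, with each gene's spread taken from the trend over genes. The edgeR fit called 29.9% of the former and 90.3% of the latter. Many genes changed at once make the adjusted threshold easier to reach. The shares therefore do not carry over to data where few genes change, and a change of 4-fold in single genes is not excluded.

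Myt1l (chromosome 12, bases 29528384 to 29923213 of the plus strand, GRCm38) had 1287 CPM for WT 1, 1281 for WT 3, 1310 for WT 5, 1032 for WT 6, 1290 for WT 8, 1361 for Het 1 and 1012 for Het 4. The 2 Het values lay at the ends of the range, so the groups overlapped. The log2 fold change of Het over WT was -0.08 ± 0.249 (SE, edgeR adjusted p = 0.999), and it was 0.090 without Het 4 and -0.28 without Het 1. In other glutamatergic nuclei Myt1l had 1839, 1946, 1809 and 1677 CPM in Het 1 to Het 4, and 1334 (WT 4) to 1843 CPM (WT 5) in WT libraries. The allele shifts the reading frame, and whether its transcript is lost was not tested, so the Myt1l level does not check the genotype labels. An exon of Myt1l overlaps Gm20208 on the opposite strand, and the sources used here do not say whether the counting used strand.

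The rule genes are given as values, with no test, since they chose the nuclei. Tmem132d (chromosome 5, 127781630 to 128433077, minus strand) had 5225 ± 2036 CPM in WT (n = 5) and 6342 ± 1468 CPM in Het libraries (n = 2). Eomes (chromosome 9, 118478212 to 118486132, plus strand) had 319 ± 127 and 284 ± 42.9 CPM. Cdhr1 (chromosome 14, 37077857 to 37098347, minus strand) had 171 ± 34.4 and 197 ± 42.9 CPM. The genotypes overlapped in all 3, and each log2 fold change (0.26, -0.20 and 0.10) changed sign when 1 library was left out.

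Of the 20 genes that lead the profile, 13 had higher and 7 lower values in Het, with log2 fold changes from -0.88 to 0.81 and a median of 0.19 beside -0.02 over all 1792 genes, of which 850 were above 0 and 942 below. Before adjustment 1 of them was below 0.05, Ndst4 (log2 fold change -0.88 ± 0.397, SE, edgeR adjusted p = 0.999). Svil stood at 0.54 ± 0.468 and Tshz2 at 0.18 ± 0.313 (SE), each less than 2 SE from 0.

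The 10 genes nearest to a call did not pass, and they are given as values. They were taken for the smallest p and a constant sign with each library left out. This choice favours genes whose genotypes do not overlap, so that nothing is read from it. Without Het 1 or Het 4 the sign rested on 1 Het library. Of all 1792 genes, 4.13% had both Het libraries above all 5 WT libraries (74 genes) and 2.73% had both below (49 genes). Cntnap5a, a neurexin-like adhesion gene, had the smallest p. It had 1034 CPM for WT 1, 645 for WT 3, 728 for WT 5, 492 for WT 6, 904 for WT 8, 270 for Het 1 and 348 for Het 4. Its 2 Het values were the lowest of the 7, at a log2 fold change of -1.34 ± 0.340 (SE, edgeR adjusted p = 0.999).

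Rgs6, a regulator of G protein signalling, was at 63.4 to 148 CPM in WT and at 296 in Het 1 and 187 in Het 4 (log2 fold change 1.41 ± 0.366, SE). Zranb2, a splicing factor, was at 105 to 216 CPM in WT and at 305 and 361 in Het 1 and Het 4 (1.09 ± 0.295). B3galt1, a galactosyltransferase, was at 633 to 1256 CPM in WT and at 1673 and 1589 in Het 1 and Het 4 (0.92 ± 0.286).

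The others had lower values in Het. Fut9, a fucosyltransferase, had 281 to 336 CPM in WT against 167 and 201 in Het 1 and Het 4 (log2 fold change -0.84 ± 0.269, SE), and Flna, the actin crosslinker filamin A, 151 to 285 against 111 and 93.6 CPM (-1.08 ± 0.351). Sox11, a transcription factor of immature neurons, had 146 to 258 against 130 and 80.2 CPM (-1.01 ± 0.363). The long noncoding RNA C130073E24Rik was at -2.16 ± 0.740 and the kinase Cdk17 at -1.27 ± 0.444. Tafa1, a secreted protein of the brain, overlapped between genotypes, with 168 to 656 CPM in WT and 204 and 53.5 CPM in Het 1 and Het 4 (-1.36 ± 0.489), and it was -2.66 without Het 1 and -0.82 without Het 4. With Het 2 and Het 3 added, a choice made after seeing the data, Fut9 (0.12) and Tafa1 (0.83) changed sign, and Cntnap5a (-0.41), Cdk17 (-0.48), Sox11 (-0.44), Flna (-0.67), C130073E24Rik (-1.47), Zranb2 (0.76) and B3galt1 (0.71) came nearer to 0. Rgs6 moved away from 0 to 1.94 in that fit (edgeR adjusted p = 0.701). An exon of Rgs6 overlaps Gm29530, and an exon of Cdk17 overlaps Elk3, on the opposite strand, and exons of Eomes, Tshz2 and Bicc1 also overlap genes on the opposite strand.

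**Figure D4:**
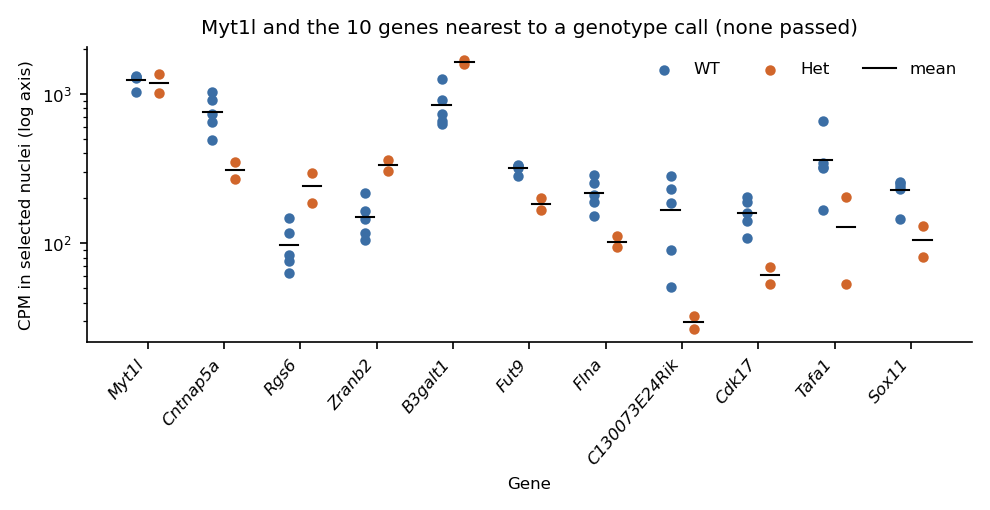
CPM (log axis) in the selected nuclei of 5 WT (blue) and 2 Het (orange) libraries for Myt1l and the 10 genes nearest to a genotype call, with bars at the means. The 10 genes were chosen by their p, which favours points that do not overlap, and Tafa1 and Myt1l overlapped all the same. None of the 11 passed the adjusted threshold.

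The gene groups showed no call either (0 in each). GABA receptor genes had a median of 0.25 in log2 fold change over 9 tested, 7 of them above 0, beside the 850 of 1792 for all genes. Gabrg1 (1.02 ± 0.418, SE, edgeR adjusted p = 0.999) and Gphn, which encodes the inhibitory scaffold gephyrin (0.69 ± 0.271, SE, edgeR adjusted p = 0.999) were below 0.05 before adjustment. Axon guidance genes had a median of -0.13 over 21 tested, 7 above 0 and 14 below, and neither list's split was tested. Nrp2 among them, below 0.05 before adjustment as was Gria4, was at -0.78 ± 0.351 (SE, edgeR adjusted p = 0.999). Glutamate genes had a median of 0.00420 over 15 tested, with the AMPA receptor Gria4 at 0.76 ± 0.291 (SE, edgeR adjusted p = 0.999). Transcription factors had a median of -0.12 over 11 tested, and the mitral and tufted markers -0.28 over 4.

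Whether the genotype difference was of another size in the selected nuclei than in other glutamatergic nuclei of the same libraries was tested with an interaction term. Of 10002 genes, 0% were called by edgeR (0 genes, smallest adjusted p = 0.522). Unadjusted, 331 had p under 0.05, 163 above 0 and 168 below. The filter took both sets of nuclei together, so a gene could pass through the larger sums of other glutamatergic nuclei. In a fit not planned beforehand, limited to the 1792 genes tested in the selected nuclei, 0 were called (smallest edgeR adjusted p = 0.999). In counts simulated with known changes, over 9264 genes of the wider filter, the interaction fit called 1.09% of genes changed 2-fold and 10.4% of those changed 4-fold. The 0 calls therefore do not show that the differences were of the same size. For Myt1l the difference between the 2 log2 fold changes was -0.11 ± 0.332 (SE, edgeR adjusted p = 1). The count of calls was not stable, with 3 genes without WT 1. Without Het 1 or Het 4 the fit held 1 Het library, and its count of calls is not read.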

How the data were processed

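Nuclei of 12 forebrains at P1 had been fixed and barcoded by split pooling. The authors mapped reads to mm10 and counted UMIs with ScaleRna v1.4, with nuclei called by CellFinder of v1.5, and deposited expected counts, unnormalized UMI counts in which some UMIs were divided between genes (6.58% to 6.88% of the entries of a library). The submitters' processing notes also name Seurat 4.3.0. The sources used here do not say how UMIs were divided or whether strand was used. The design had assumed whole counts, so sums over nuclei were rounded before the count models.

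All 55335 listed genes entered the CPM. The filter was that of the rule, without clustering or a doublet caller, and without the study's limit on log genes over log UMIs (0.9), which was an alternative. Genotype was tested with edgeR 4.0.16 in R 4.3.3 (TMM, filterByExpr, genotype as the only term), and with DESeq2 1.42.0 as an alternative. The interaction fit used the library as block. SEs are the log2 fold change over the t quantile of its p. Shares and medians were tested with exact two-sided permutation tests (scipy 1.17.1), and correlations with 100000 resamples. The scripts were tested on simulated data, and the share of known changes that each edgeR fit called is given with its result. Positions come from GENCODE M21 (GRCm38).

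Named genes are Myt1l, the rule genes, the 20 largest ratios among genes with at least 200 UMIs and higher in every library with 10 members, and the 10 smallest genotype p of constant sign with each library left out. For gene groups, the most abundant and those with p under 0.05 or in every library higher were named after seeing their values. The selected nuclei and the 19 gene lists were chosen with earlier results of these data known. Replicate numbers in the labels did not pair the samples (correlations of same-number deviations -0.0616, 0.0166, 0.0146 and 0.102 over 9579 genes). Some genes that the rules select are not reported here.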

Additional observations from a re-analysis of the deposited data

Results flagged for a closer look

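Over 48 groups of 4 to 10 libraries, 6 held a library far from the others by Dixon's criterion, which chance gives in about 1 group in 20. The share of selected nuclei was 1.10% in WT 8, with the next WT library at 0.387%. The share of olfactory bulb type inhibitory nuclei was 0.306% in Het 4, with the next Het library at 0.201%. The mean number of Tmem132d UMIs per selected nucleus was 69.3 in WT 7, which had 3 such nuclei, with the next WT library at 22.3. Myt1l was at 1032 CPM in the selected nuclei of WT 6, with the next at 1281 CPM. Cntn4 was at 4451 CPM in WT 3, with the next at 3396 CPM, and Sox11 at 146 CPM in WT 8, with the next at 232 CPM. No reason for these values was tested.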

How the results depend on the processing

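The genotype difference in share kept its sign under 22 of 23 alternatives and never passed. Leaving out a library gave -0.126 to 0.0302 percentage points, above 0 without WT 8. The difference in median UMIs ranged from -368 to 124 UMIs with a library left out, above 0 without WT 7 (124) or Het 4 (40.8), and was 171 in males. The correlation ranged from 0.453 (without WT 8, p = 0.161 by permutation) to 0.731. Genes called for genotype numbered 0 with each WT library left out (0 to 0). They numbered 0 as well under the other alternatives that held 2 or more Het libraries, except those named next. Without a filter on low counts there were 3 (Mrc1 and F13a1 higher, Mid1 lower). In males, where Het 1 was alone and was assumed to vary like the WT libraries, there were 5. The fit with a replicate block gave 1 (Gm47283, log2 fold change 2.55), with 118 against 41 genes at p under 0.05. The replicate block gave -0.00873 percentage points for the share over 4 pairs (exact permutation p = 1, smallest possible 0.125). Replicate numbers did not pair the samples. Interaction calls ranged from 0 to 3 with a WT library left out, with 3 without WT 1 (Zfp804b, Lrrtm4 and Ebf1). Without Het 1, without Het 4 and in males that fit held 1 Het library, and its calls are not counted here. Interaction calls were 2 (Pcsk5 and Grik2) in libraries with at least 8 selected nuclei, an alternative chosen after seeing the data. The cause was not tested. For Myt1l and the 3 rule genes 12 of 68 log2 fold changes turned sign. The 10 genes chosen by p were also chosen for a constant sign with each library left out, which fixes those 70 values, and 2 of their other 96 turned. With a library left out, Cdhr1 ranged from -0.14 (without Het 4) to 0.36, Eomes from -0.34 to 0.017 (without WT 8), Myt1l from -0.28 to 0.090 (without Het 4) and Tmem132d from -0.025 (without Het 4) to 0.51. In males Cdhr1 was -0.11, Eomes 0.40 and Myt1l 0.051. With at least 8 selected nuclei Cdhr1 was -0.15, Tmem132d -0.28, Fut9 0.12 and Tafa1 0.83. Myt1l was 0.021 without a filter and 0.0054 under the replicate block, where Rgs6 was 0.83 and not 1.41. Tmem132d was -0.028 without the nuclei that had UMIs of glial, vascular or inhibitory marker lists. The number of selected nuclei, 1 to 53 a library, limits every comparison.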
